A study of Rattus norvegicus with 6 samples.

Results

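The semaphorin signalling family was read across cultured rat retinal ganglion cells (RGCs), whose axons form the optic nerve. Members were every gene of the deposited table whose symbol begins with Sema and a digit or with Plxn, together with Nrp1 and Nrp2, with no use of their values. They came to 26 of 17366 listed genes: 19 semaphorins, 5 plexins and 2 neuropilins. Polyadenylated RNA was sequenced from 6 libraries of cultures from Sprague Dawley rats labelled age P5, kept for 10 days. In 3 libraries the cells had been exposed for 12 h to 1 µg/ml Chrdl1, chordin-like 1, which is secreted and binds BMPs, the bone morphogenetic proteins. The other 3 received the vehicle, which per the labels held 0.1% BSA and 4 mM HCl. Titles carry a code shared by 1 vehicle and 1 Chrdl1 library, and these 3 pairs are called A, B and C. What the code stands for is not stated, and separate animals or cultures are not stated for the libraries of either group. The p-values here therefore rest on library-to-library spread alone, which may be technical.

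Semaphorins are guidance proteins that share a sema domain. Those of class 3 are secreted, those of classes 4, 5 and 6 span the membrane, and class 7 is tethered by a lipid anchor. Plexins are their receptors, with an intracellular part that acts on small GTPases and through them on the cytoskeleton. Most class 3 semaphorins bind a neuropilin, which joins a plexin to form the receptor. RGC axons are steered by members of both families on their way through the optic chiasm, as shown in mouse.

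Chrdl1 acts on BMP ligands, whose signals reach DNA through Smad proteins, so promoters were searched for letters that Smads are known to bind. Windows of 250 bases before to 50 bases after the gene start were found for 20 of the 26 members (RefSeq, build GRCr8). Both searched motifs, GGCGCC and GTCTAGAC, read the same on the 2 strands and do not overlap each other. GGCGCC stood in 7 of the 20 windows, those of Nrp2, Plxna2, Plxna3, Plxnb2, Plxnd1, Sema5b and Sema6d, and in 11.0% of 33469 windows of all genes or 14.1% of the 21842 of protein-coding genes. GTCTAGAC stood in 0 of the 20 and in 0.197% of all windows. Windows are shown here, 1 each for the most abundant listed ligand, neuropilin and plexin. They run 5′ to 3′ on the gene's strand, with GGCGCC in capitals where it occurs. They lie at chr4:18699578-18699877 on the minus strand for Sema3c, chr19:73256307-73256606 on the plus strand for Nrp1 and chr7:122137899-122138198 on the minus strand for Plxnb2. G and C made up 36.3% of the Sema3c window, 66.3% of that of Nrp1 and 73.7% of that of Plxnb2.
Sema3c: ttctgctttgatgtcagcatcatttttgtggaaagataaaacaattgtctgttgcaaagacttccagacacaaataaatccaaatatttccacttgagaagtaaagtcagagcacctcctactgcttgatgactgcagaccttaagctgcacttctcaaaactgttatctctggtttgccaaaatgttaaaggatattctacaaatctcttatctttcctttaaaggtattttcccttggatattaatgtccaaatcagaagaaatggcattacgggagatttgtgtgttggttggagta
Nrp1: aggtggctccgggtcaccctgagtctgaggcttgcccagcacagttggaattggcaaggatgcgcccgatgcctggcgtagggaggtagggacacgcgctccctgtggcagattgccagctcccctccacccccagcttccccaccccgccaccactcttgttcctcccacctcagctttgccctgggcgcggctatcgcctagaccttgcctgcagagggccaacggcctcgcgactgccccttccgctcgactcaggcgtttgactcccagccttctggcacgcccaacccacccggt
Plxnb2: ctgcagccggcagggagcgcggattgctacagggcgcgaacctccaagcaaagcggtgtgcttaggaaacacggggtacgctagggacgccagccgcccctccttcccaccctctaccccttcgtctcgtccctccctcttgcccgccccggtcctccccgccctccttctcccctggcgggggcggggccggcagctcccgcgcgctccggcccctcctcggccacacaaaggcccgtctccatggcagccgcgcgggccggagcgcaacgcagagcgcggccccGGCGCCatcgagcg

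The cultures carried RGC transcripts at high levels with other cells beside them. The 12 listed of 13 RGC markers summed to 3085 to 3546 FPKM in vehicle and 2876 to 3545 FPKM in Chrdl1 libraries. Most of this sum came from Sncg, Stmn2 and Nefl, at means of 948, 753 and 597 FPKM. Pou4f1, also on the marker list, was not analysed here. FPKM is fragments per kilobase of transcript, scaled to a common number of reads, so levels of different genes can be set side by side. The 11 microglia and macrophage markers summed to 27.2 to 300.4 FPKM in vehicle and 14.6 to 270.7 FPKM in Chrdl1 libraries. Both low values were in pair B. Of the 11, Cx3cr1 alone was under 1 FPKM in every library. The 9 endothelial and mural markers, mostly Acta2, had sums of 85.9 (pair A), 13.5 (pair B) and 132 FPKM (pair C), averaged over each pair, with 6 of the 9, Pecam1, Cdh5, Cldn5, Tek, Flt1 and Rgs5, under 1 FPKM in every library. Sums of fibroblast markers were 17.7, 3.25 and 33.5 FPKM by pair, and of astrocyte and Müller glia markers 71.7, 56.0 and 87.8 FPKM. By pair, amacrine markers summed to 11.9, 10.2 and 19.4 FPKM and oligodendrocyte lineage markers to 14.8, 18.4 and 15.7 FPKM. Under 1 FPKM in every library were Pdgfra, Sox10 and Olig2 of 6 oligodendrocyte lineage markers, and Tfap2a and Chat of 6 amacrine markers. So were Col1a2 of 5 fibroblast markers and Rlbp1, Aqp4, Sox9 and Aldh1l1 of 7 astrocyte and Müller glia markers. The extraction protocol names visual cortex while every other label names RGC cultures. Of the 7 astrocyte and Müller glia markers, Gfap, the astrocyte filament, was at most 1.24 FPKM and Slc1a3, a glutamate transporter, at most 5.95 FPKM, while Glul, glutamine synthetase, was at 51.5 to 82.5 FPKM. Read totals recovered from the table ran from 14546600 in the vehicle library of pair B to 26551800.

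Secreted class 3 semaphorins held the most abundant listed ligand. Sema3c, a ligand that acts through both neuropilins, was at 32.8, 39.4 and 28.3 FPKM with vehicle, listed here and below in the order of pairs A, B and C, and at 31.9, 36.8 and 34.4 FPKM with Chrdl1. It had the highest mean of all 26 members, 33.9 ± 3.87 FPKM (SD, n = 6), and supplied 52.6% to 58.0% of class 3 FPKM in each library. Sema3e, which in mouse binds plexin D1 without a neuropilin, was at 12.8, 14.2 and 10.0 FPKM in vehicle and 13.4, 12.5 and 11.5 FPKM in Chrdl1 libraries. Sema3a, the classical growth cone collapsing factor, was at 8.59, 9.71 and 10.4 FPKM in vehicle and 9.14, 10.4 and 12.4 FPKM in Chrdl1 libraries. Sema3c exceeded Sema3e in all 6 libraries, by 2.39 to 2.999 times. Sema3f, a ligand of neuropilin-2, averaged 3.45 ± 0.759 FPKM and Sema3d 1.38 ± 0.331 FPKM (n = 6). Sema3b and Sema3g lay near the floor, at 0.167 ± 0.101 and 0.127 ± 0.0776 FPKM, from 4 to 20 and 2 to 22 reads per library.

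Several class 3 genes neighbour each other on a chromosome, some at like and some at different levels. Sema3c, Sema3e, Sema3a and Sema3d lie in that order within 5.10 Mb of chromosome 4 (14318276 to 19413519, rn6), all on the minus strand. Sema3c and Sema3e are 2829 kb apart, with 3 other listed genes between them. Sema3e and Sema3a are 584 kb apart and Sema3a and Sema3d 829 kb apart, with 0 other listed genes between either pair of neighbours. Sema3e and Sema3a overlapped in level, Sema3e being the higher in 4 of 6 libraries. Sema3a was at 5.90 to 12.5 times the FPKM of Sema3d in the 6 libraries, and Sema3e at 7.09 to 12.0 times. On chromosome 8, Sema3b (116354071 to 116361343, minus strand) and Sema3f (116439996 to 116469915, minus strand) are 78.7 kb apart, with 3 other listed genes between them. Sema3f was at 14.0 to 44.4 times the FPKM of Sema3b, whose few reads make that ratio imprecise. Sema3d, Sema3f and Sema3b were singled out here after their values were seen.

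**Figure D1:**
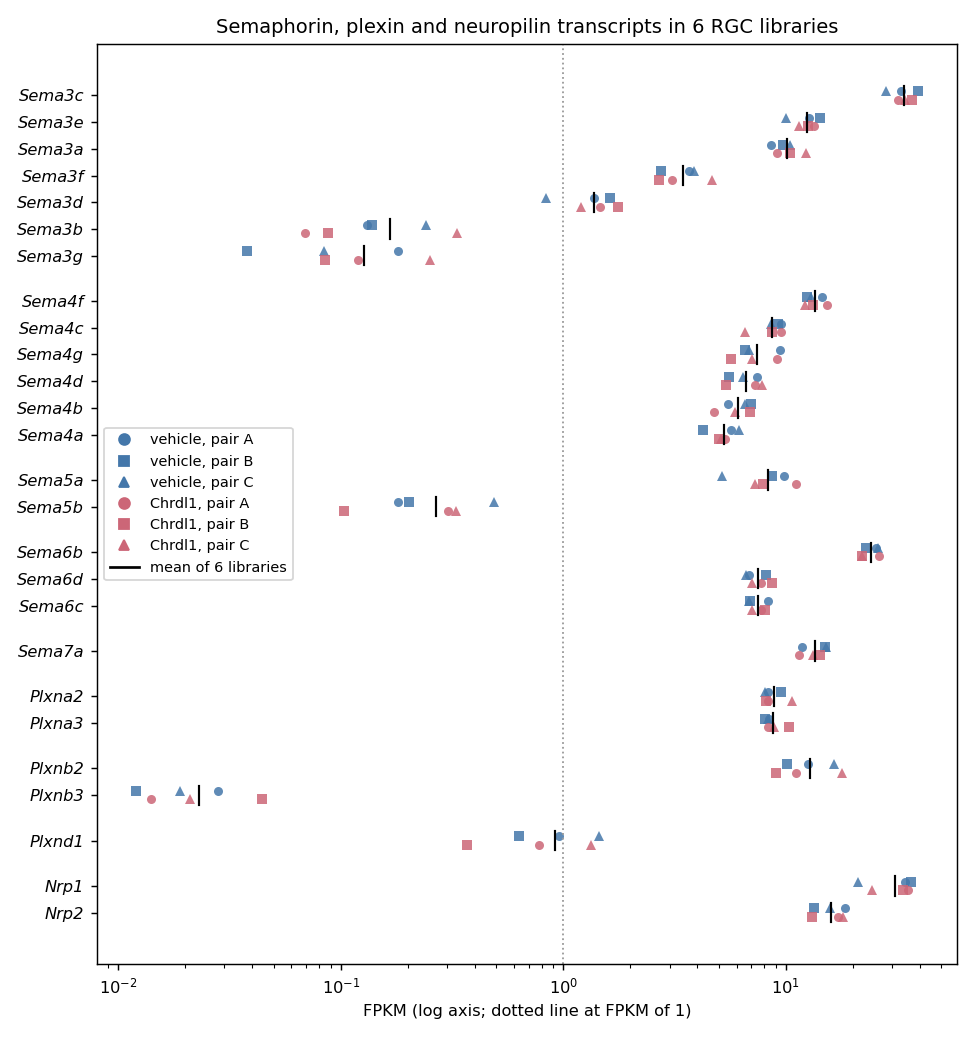
FPKM on a log axis (horizontal) of the 26 members, grouped by class, in the 3 vehicle (blue) and 3 Chrdl1 (red) libraries, with symbols for pairs A, B and C and a black bar at the mean of 6 libraries. Sema3c (mean 33.9 FPKM) and Nrp1 (30.8 FPKM) lead, 5 members have means left of the dotted line at 1 FPKM, and the 2 colours overlap in every row.

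Membrane-bound ligands were represented in every class. The 6 class 4 genes all passed the minimum for testing, an FPKM of 1 or more in 3 or more libraries, and their means ran from 5.25 FPKM for Sema4a to 13.4 FPKM for Sema4f. Sema4f was at 14.5, 12.4 and 13.0 FPKM in vehicle and 15.3, 13.2 and 12.2 FPKM in Chrdl1 libraries, a narrow spread in which the groups overlap. Sema4c, a ligand of plexin B2, was at 9.52, 9.25 and 8.60 FPKM in vehicle and 9.49, 8.69 and 6.54 FPKM in Chrdl1 libraries, the last being the lowest of the 6. In class 5, whose proteins carry thrombospondin repeats, Sema5a exceeded Sema5b by 10.5 to 76.7 times. Sema5a was at 9.85, 8.66 and 5.15 FPKM in vehicle and 11.1, 7.91 and 7.26 FPKM in Chrdl1 libraries, lowest in both libraries of pair C. Sema5b averaged 0.268 ± 0.136 FPKM from 8 to 44 reads per library. In mouse retina these 2 proteins keep growing neurites in their layer.

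Classes 6 and 7 each held a ligand above 10 FPKM. Sema6a was not analysed here. Sema6b was the second most abundant of the 19 listed semaphorins, at 25.3, 22.9 and 26.0 FPKM in vehicle and 26.2, 22.0 and 21.9 FPKM in Chrdl1 libraries. Sema6b and Sema3c together made 33.2% to 35.7% of the FPKM of the 19 listed semaphorins in each library. Sema6d, which in mouse guides RGC axons at the chiasm, was at 6.80, 8.15 and 6.65 FPKM in vehicle and 7.73, 8.64 and 7.04 FPKM in Chrdl1 libraries. Sema6c averaged 7.47 ± 0.625 FPKM. Sema7a, the lipid-anchored semaphorin that binds beta1 integrin, was at 11.8, 15.0 and 15.1 FPKM in vehicle and 11.5, 14.3 and 13.2 FPKM in Chrdl1 libraries, lowest in both libraries of pair A.

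Among receptors, the 2 neuropilins summed to 36.8 to 52.8 FPKM and the 5 listed plexins to 27.9 to 38.7 FPKM, the neuropilins being the higher in every library. Plexins A1, A4, B1 and C1 were not analysed here. Nrp1, the co-receptor for Sema3a that also binds VEGF, was at 34.4, 36.3 and 21.0 FPKM in vehicle and 35.2, 33.4 and 24.5 FPKM in Chrdl1 libraries. Nrp2, the co-receptor for Sema3f, was at 18.4, 13.3 and 15.7 FPKM in vehicle and 17.1, 13.1 and 18.1 FPKM in Chrdl1 libraries. Nrp1 exceeded Nrp2 in all 6 libraries but by different amounts, from 1.34 to 2.73 times, and it supplied 65.2% ± 7.97 of neuropilin FPKM with vehicle and 65.5% ± 7.32 with Chrdl1 (SD, n = 3 each). Both pair C libraries had the lowest shares.

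The plexin Plxnb2, a receptor of class 4 semaphorins, was at 12.5, 10.1 and 16.4 FPKM in vehicle and 11.1, 9.05 and 17.9 FPKM in Chrdl1 libraries, highest in both libraries of pair C and lowest in both of pair B. It exceeded Plxna3 in 5 of 6 libraries and Plxna2 in 6 of 6. Plxna2, a receptor of class 6 semaphorins, was at 8.32, 9.51 and 8.06 FPKM in vehicle and 8.31, 8.17 and 10.6 FPKM in Chrdl1 libraries. Plxna3, which joins neuropilin-2 as a receptor for Sema3f, was at 8.41, 8.09 and 8.29 FPKM in vehicle and 8.31, 10.3 and 8.85 FPKM in Chrdl1 libraries. Plxna2 and Plxna3 could not be ranked, Plxna3 being the higher in 4 of 6 libraries. Plxnd1, the receptor of Sema3e, was at 0.956, 0.635 and 1.45 FPKM in vehicle and 0.777, 0.368 and 1.34 FPKM in Chrdl1 libraries, so its ligand's FPKM was 6.89 to 34.0 times its own. Plxnb3 averaged 0.0230 ± 0.0117 FPKM, which rested on 1 to 6 reads per library.

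By mean FPKM, 9 of the 26 members were at 10 or more, 12 between 1 and 10, and 5 under 1. These 5, Plxnd1, Sema5b, Sema3b, Sema3g and Plxnb3, did not reach the minimum for testing, which left 21. Of the 25 steps between neighbours in the order of means, 2 showed no overlap of the 6 values, Sema6b over Nrp2 and Sema3f over Sema3d. A further 4 steps overlapped but held within every library, Sema3a over Plxna2, Sema4a over Sema3f, Plxnd1 over Sema5b and Sema3g over Plxnb3, so that 6 of the 25 did in all. The other 19 steps neither parted the ranges nor held in every library. Sema3c exceeded Nrp1, the next in order, in 4 of 6 libraries.

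Levels went with the pair far more than with treatment. Over the 21 tested members the variance of log2(FPKM + 1) was taken by the pair for a median share of 81.0% and by treatment for 4.17%, where all 10390 tested genes gave 80.2% and 3.95%. The ratio of the highest to the lowest pair mean had a median of 1.26, against 1.28 for all tested genes. The family therefore varied between pairs about as much as other genes did. In bulk RNA, fewer cells of a type and less RNA per cell cannot be told apart.

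The direction of the pair differences varied by gene. Both libraries of pair C were the lowest for 5 of 21 members, Nrp1, Sema3e, Sema4c, Sema5a and Sema3d, where 14.7% of tested genes showed this. By pair, Nrp1 averaged 34.8, 34.9 and 22.8 FPKM and Sema5a 10.5, 8.28 and 6.20 FPKM, and the summed RGC markers 3546, 3087 and 3042 FPKM. Of the 12 listed RGC markers, 8 were likewise lowest in both libraries of pair C, against 14.7% of tested genes. Among them was Pou4f2, a transcription factor of RGCs, at 28.6, 38.0 and 27.2 FPKM with vehicle and 28.4, 36.1 and 24.6 FPKM with Chrdl1. Its highest values were in pair B. Thy1, also listed, was instead highest in pair C, at 201, 153 and 271 FPKM with vehicle and 203, 133 and 245 FPKM with Chrdl1. The part of the RGC markers in the values of Nrp1 and Sema5a was not tested. Both libraries of pair C were the highest for 3 members, Plxnb2, Sema3a and Sema3f, against 23.4% of tested genes. Both libraries of pair B were the lowest for 6 members, Nrp2, Plxnb2, Sema4g, Sema4d, Sema4a and Sema3f, against 20.0% of tested genes. By pair, Plxnb2 averaged 11.8, 9.58 and 17.1 FPKM and the untested Plxnd1 0.867, 0.502 and 1.39 FPKM. The summed microglia and macrophage markers, 224, 20.9 and 286 FPKM in the same pairs, were likewise lowest in pair B and highest in pair C. So were the sums of endothelial and mural, fibroblast, astrocyte and Müller glia, and amacrine markers. Those of the oligodendrocyte lineage were lowest in pair A and highest in pair B. Of the 11 microglia and macrophage markers, 10 were lowest in both libraries of pair B (20.0% of tested genes). Only 5 were highest in both of pair C (23.4%). The part of all these markers in the values of Plxnb2 and Plxnd1 was not tested. Both libraries of pair B were the highest for 4 members, Sema3c, Sema6d, Sema4b and Sema3d, against 17.8%. Both libraries of pair A were the lowest for 3, Sema7a, Sema3a and Sema4b, against 22.7%, and the highest for 4, Sema4f, Sema4c, Sema5a and Sema4g, against 13.6%. Members outside the naming rule in these counts were named after their values were seen.

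**Figure D2:**
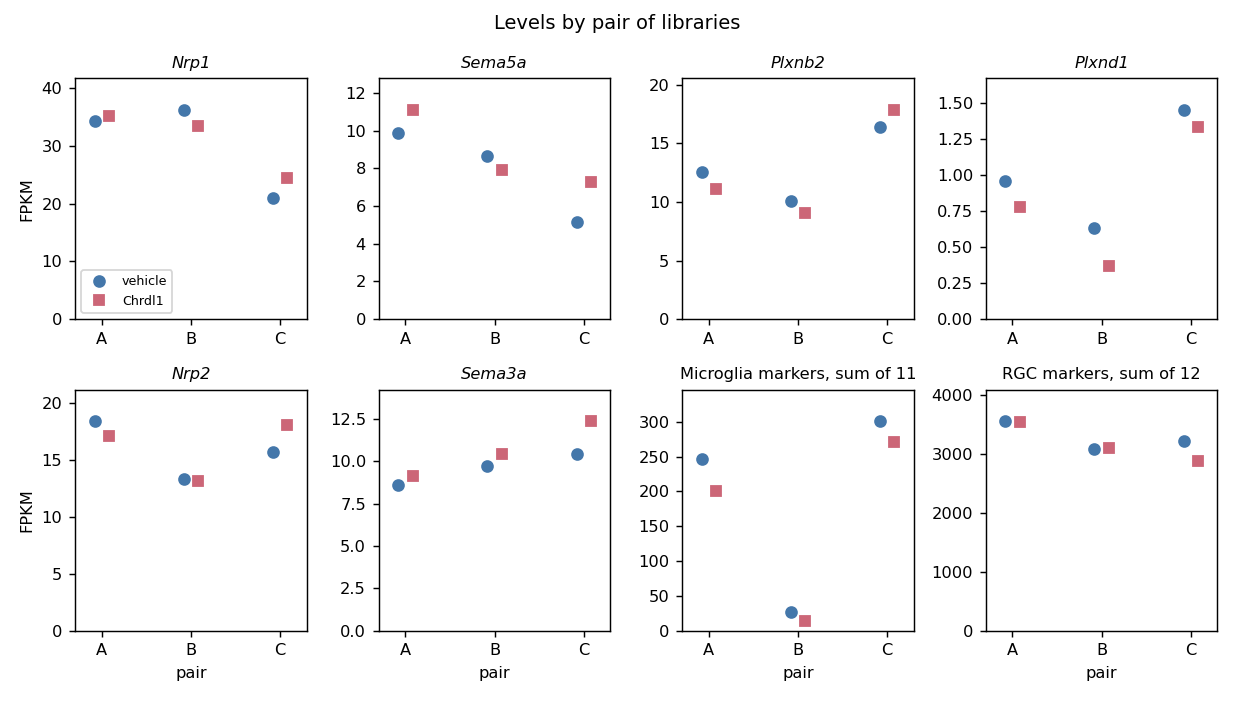
FPKM (vertical axes, from 0) of 6 members and of 2 summed marker lists in the vehicle (circles) and Chrdl1 (squares) library of pairs A, B and C (horizontal axes). Nrp1 and Sema5a are lowest in pair C, and Plxnb2 and Plxnd1 are lowest in pair B and highest in pair C, as are the microglia and macrophage markers (20.9 and 286 FPKM on average).

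Exposure to Chrdl1 for 12 h was compared with vehicle to ask whether it alters these transcripts, and no member passed the test. With limma on log2(FPKM + 1), 0 of 21 tested members had a Benjamini-Hochberg adjusted p under 0.05 (each was 0.9998), and 0 were at an unadjusted p under 0.05. The background was 0% called and 0.173% at an unadjusted p under 0.05 among 10390 genes. With the pair as a block 0 members were called (smallest adjusted p 0.880) and 0 were at an unadjusted p under 0.05, where 5.15% of all tested genes were. Limma voom on recovered reads called 0 with and without the block, and 0 and 2 members were at an unadjusted p under 0.05 without and with it. These were Sema5a (voom log2 fold change 0.21 ± 0.089 SE, adjusted p 0.939) and Plxna3 (0.16 ± 0.077, adjusted p 0.939), beside 4.71% of all tested genes at that level.

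The sizes that these libraries leave possible differed between fits. Fold changes of the 21 members, Chrdl1 minus vehicle on the log2(FPKM + 1) scale, ran from -0.14 for Sema4c to 0.16 for Sema5a. Without the block their 95% intervals, which take no account of how many genes were tested, had a median halfwidth of 0.36. They reached from -0.69 for Plxnb2 to 0.75 for Sema5a, and 13 of the 21 lay within 0.5 of 0. With the pair as a block the median halfwidth was 0.20, and all 21 intervals lay within 0.5 of 0, from -0.35 for Sema4c to 0.41 for Sema3d. With voom and the block, which adds no such pseudocount, the interval of Sema3d reached from -0.090 to 0.60.

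In the limma fit without the block, which leaves the pairing out, the members with the smallest unadjusted p were Plxna3, Sema4c, Sema3a and Sema6d. With the pair as a block they were Sema3a, Sema4c, Sema5a and Plxna3, at p of 0.15 to 0.21 in limma. Each SE here and in the next paragraph is from the fit without the block, unless stated. Fold changes were the same in both fits. Plxna3 had a log2 fold change of 0.13 ± 0.12 (SE) and pair B gave most of it, its 3 values by pair being -0.015, 0.31 and 0.084. Sema4c was at -0.14 ± 0.15, with -0.0040, -0.080 and -0.35 in the pairs, so pair C gave most of it. Sema3a was at 0.13 ± 0.14 and positive in all pairs, at 0.080, 0.092 and 0.23. Sema6d was at 0.10 ± 0.14 and also positive in all pairs, at 0.16, 0.076 and 0.072.

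Some members changed in the same direction in all 3 pairs. Sema3a, Sema6d and Sema3d were higher with Chrdl1 in all 3 pairs, 3 of 21 members against 7.55% of tested genes. Sema7a, Sema4c and Sema4b were lower in all 3 pairs, again 3 of 21, against 19.5%. For 0 members did the 3 Chrdl1 libraries lie wholly above or wholly below the 3 vehicle libraries, which 0.577% and 1.87% of tested genes did. Of the abundant members, Sema3c was at 0.047 ± 0.13, Nrp1 at 0.042 ± 0.23, Nrp2 at 0.026 ± 0.16 and Sema3e at 0.024 ± 0.15. Plxnb2 was at -0.062 ± 0.27, Sema7a at -0.091 ± 0.14, Sema6b at -0.079 ± 0.11 and Sema4f at 0.024 ± 0.12. Plxna2 was at 0.053 ± 0.14 and Sema5a at 0.16 ± 0.25. With the pair as a block SEs were smaller, for example 0.075 for Nrp1 and 0.087 for Plxnb2.

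**Figure D3:**
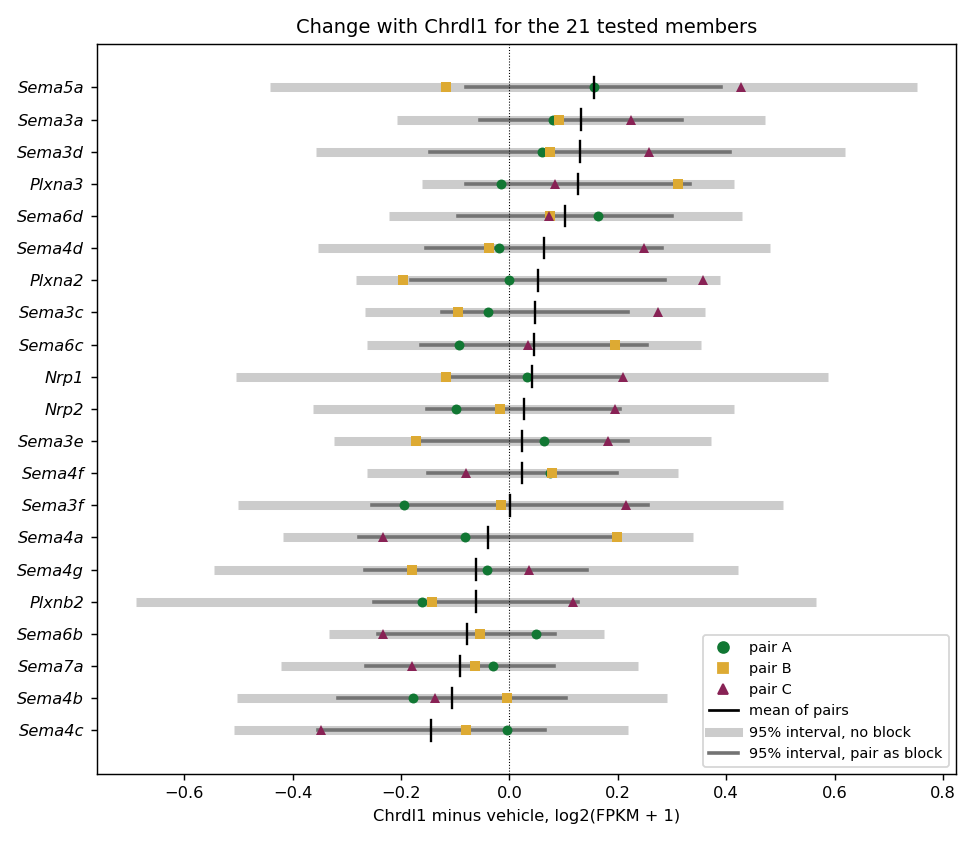
Change with Chrdl1 in log2(FPKM + 1) (horizontal axis) for the 21 tested members, with coloured symbols for pairs A, B and C, a black bar for their mean, and 95% intervals without the block (wide, light) and with the pair as a block (narrow, dark). Every interval spans 0, and the symbols of pair C often lie farthest from it, as for Sema5a (0.43), Plxna2 (0.36) and Sema4c (-0.35).

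Positive fold changes were held by 14 of 21 members, against 38.4% of tested genes. The median of the members was 0.026 and that of all tested genes -0.028. By pair, the members had medians of -0.015, -0.037 and 0.12, against -0.013, -0.022 and -0.055 for all tested genes, so the surplus lay in pair C. Without both libraries of pair C, 8 of 21 were positive and the members' median was -0.042, against -0.017 for all tested genes. The members' median was also below 0 without the vehicle library of pair B (-0.019) or the Chrdl1 library of pair C (-0.0044). All tested genes had -0.034 in each of these fits. In pair C fold change went with transcript length. Its median was -0.19 for the 1087 tested transcripts under 1000 bases and 0.092 for the 1611 of 4000 bases and over. Member transcripts are long, from 2301 to 10476 bases with a median of 4009, against 2136 for all tested. In pair C the 11 members of 4000 bases and over had a median of 0.18 and the 10 shorter ones -0.023, where all tested transcripts from 2000 to under 4000 bases had -0.043. The longer and shorter members had -0.0040 and -0.056 in pair A, and -0.094 and -0.0096 in pair B. The part of transcript length in the members' values was not tested. After the length trend was removed from each library, 13 of 21 members were positive, with a median of 0.023 against -0.0034 for all tested genes. The share of all tested genes that were positive was taken in the main fit only, so 38.4% is no background for the other fits.

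Partners that carry semaphorin signals inside the cell, or sit beside the receptors, did not pass the test either. Of 43 partners on the list, 41 were analysed here and 36 reached the minimum for testing. Limma called 0 with or without the block, as did voom. At an unadjusted p under 0.05 were 0 without and 2 with the block (voom also 0 and 2). With the block, 5.15% of all tested genes were at that level in limma and 4.71% in voom. The 2 partners of the limma fit with the block were Tyrobp and Trem2, named after their values were seen. Trem2 is a receptor of microglia and Tyrobp its adaptor, both are also on the microglia marker list, and Tyrobp ranged from 4.98 to 75.3 FPKM between libraries. Fold changes were positive for 13 of 36 partners, 36.1%, close to the 38.4% of all tested genes. The smallest unadjusted p without the block belonged to Rnd2, a small GTPase (-0.17 ± 0.11), Farp2, an exchange factor that acts below plexin A (-0.11 ± 0.11), and Mical1, an actin-oxidising enzyme (-0.20 ± 0.21).

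Many of these partners were abundant. Of them 13 were at a mean of 50 FPKM or more over the 6 libraries, where the highest mean of a member was 33.9 FPKM. The collapsin response mediator genes Dpysl2, Crmp1, Dpysl3 and Dpysl4, whose products relay the Sema3a signal to microtubules, averaged 179 ± 32.3, 160 ± 24.6, 159 ± 27.6 and 54.1 ± 5.17 FPKM (SD, n = 6). L1cam, an adhesion molecule that associates with neuropilin-1, averaged 151 ± 21.8 FPKM. The cytoskeletal effectors Cfl1, Rac1, Limk1 and Pak1 averaged 288 ± 52.2, 170 ± 15.3, 80.9 ± 8.18 and 54.9 ± 5.58 FPKM. The kinases Fyn, Cdk5 and Gsk3b averaged 73.8 ± 9.61, 70.1 ± 4.96 and 60.6 ± 10.4 FPKM, and Itgb1, the beta1 integrin that binds Sema7a, averaged 51.2 ± 11.5 FPKM.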

How the data were processed

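The authors deposited 1 table of FPKM values with transcript lengths and rn6 coordinates. FastQC, HOMER 4.8.3 and STAR 2.4.0k are named, with build rn6 and no roles, per the submitters' processing notes. The kit was a stranded TruSeq mRNA kit, per the labels' protocols. For the annotation and the filters on reads, details were not given in the sources used. The table lists 1 transcript per gene, so isoforms are not separated. Members and lists were chosen with earlier results of these data known, and no list was tested as a set.

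Read totals were recovered from the deposited FPKM values times length. The check took values above 0 whose reads and rounding were under set limits, 10805 to 11597 per library. Of these, 99.9% to 99.97% were whole multiples of 1 read, within the 0.0005 FPKM of rounding plus 0.02 reads (7.58% to 10.3% by chance). Limma 3.58.1 in R 4.3.3 (lmFit, eBayes with trend, two-sided, treatment as the only term) was run on log2(FPKM + 1) for 10390 transcripts reaching an FPKM of 1 in 3 or more libraries, with Benjamini-Hochberg adjustment over all of them. The pseudocount understates changes of low genes. The script was tested on simulated data whose set changes were larger than those estimated for any member. Voom used trimmed-mean (TMM) scaling computed from the recovered reads. Figures and recovery used Python 3.11.15, numpy 2.4.6 and pandas 2.3.3.

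Deviations from the group means correlated between libraries sharing a title code at 0.82, 0.86 and 0.84, so the codes were taken to pair the libraries. Genes described in full were the most abundant of each class and those at a mean of 10 FPKM or more. Also described were the 4 with the smallest unadjusted p without the block. No tested member had a highest library 3 or more times its lowest. Partners named were those at a mean of 50 FPKM or more and the 3 with the smallest unadjusted p. Alternatives were a pseudocount of 0.1, no filter, quantile normalization, removal of the length trend (loess in each library), voom, the replicate block, and leaving out each library or pair. The photoreceptor marker list is not reported here.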

Additional observations from a re-analysis of the deposited data

How the results depend on the processing

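The count of called genes was 0 among all genes, the members and the partners in each of the 9 alternatives and the 9 fits that left out a library or a pair. The replicate block changed no call. It moved the genes at an unadjusted p under 0.05 from 18 to 535. The members' median ran from 0.023 to 0.066 under the 9 alternatives, and from -0.042 to 0.074 when a library or pair was left out. Plxna2 turned to -0.039 once the length trend was removed, with or without the block; 2 of 153 gene values turned in this way.

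Leaving out a library or pair turned the sign of 8 of the 17 genes followed. Nrp1 ran from -0.20 to 0.20, Nrp2 from -0.085 to 0.16, Plxna2 from -0.099 to 0.18, Plxnb2 from -0.32 to 0.13, Sema3c from -0.067 to 0.17, Sema3e from -0.11 to 0.13, Sema4f from -0.059 to 0.091 and Sema5a from -0.090 to 0.32. Leaving out 1 library leaves the pairs unequal between the groups, so these values also hold the difference between pairs. Depth limits the members that rest on few reads, Plxnb3 with at most 6, Sema3b with at most 20 and Sema3g with at most 22 per library.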
